A study of Mus musculus with 2 samples.

Results

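Cluster 9 of the study's single-cell map of the infarcted mouse heart, a cluster that the study's map names as T cell, was examined gene by gene between genotypes. The name stands in the legend of that map, while the running text of the study leaves the cluster unnamed. Its members were all genes in the study's genotype comparison for that cluster, 1302 genes of the 6477 distinct genes listed over 18 cluster comparisons. For each gene the tables give the share of cluster 9 cells whose transcript count was above 0 after the authors' normalization, separately in each of 2 libraries. Interstitial cells of the cardiac ventricle were dissociated by perfusion after myocardial infarction (MI), sorted for viability and sequenced as single cells in droplets (10x Chromium V3.1). The control library was made from PostnMCM hearts, and the library labelled depleted from Yapfl/fl;Wwtr1fl/+;PostnMCM hearts, where Cre can remove Yap1 from both chromosomes and Wwtr1, the gene of TAZ, from 1. Both genotypes carried the tamoxifen-dependent Cre in the Postn locus and the R26-eGFP transgene. All were adult mice fed chow with 0.4 g/kg tamoxifen after MI. Hearts were collected at 6 days after MI per the labels, whereas the study's methods give a later day. The Postn locus directs Cre to activated fibroblasts, so lymphocytes were not the cells in which deletion was intended. The sources used here do not state how many hearts went into each library.

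T cells recognise antigen through the T cell receptor (TCR), whose chains signal through the CD3 and zeta proteins and the kinases Lck and Zap70. While T cells develop in the thymus, Notch receptors commit progenitors to the lineage, the Rag1 and Rag2 recombinase assembles the receptor genes, and the first beta chain is tested with the invariant pre-TCR alpha chain, encoded by Ptcra. Mature T cells normally switch off the recombinase and Ptcra, and in the injured heart T cells of the circulation join resident immune cells.

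There was 1 library per genotype, so no comparison has a replicate check, no test was possible, and every difference describes these 2 libraries. Shares are given for control cells first, and depleted cells is short for cells of the library labelled depleted. Differences are in percentage points (points), as the share in the library labelled depleted minus the share in the control library. The depth and the exact number of cells behind each share are not stated in the sources used here. Most of these T cells came from the library labelled depleted, on the account of the study. The control shares took 18 distinct values, spaced by 5.8 to 5.9 points, while the depleted shares took 184, so the control shares are coarse and rest on few cells. A difference of 20 points, the limit used below, spans only a few of these steps, and a difference within 1 step cannot be read. A gene enters a table only if it passed the authors' limits on detection and on fold change in the same contrast, so listed genes had to differ in level, and a gene that is not listed has no value here. In cluster 9 the larger of both shares was at least 25.4%. A gene below that in 1 library was listed only through the other library, which fixed its direction. Yap1, Wwtr1 and Postn were listed in none of the 18 cluster tables, so the tables give no check of the deletion.

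The defining markers bore on the name of the cluster. Of 19 T cell markers, 4 were listed, all detected in most control cells. Among them were Thy1, a surface glycoprotein of T cells, and Cd3g and Cd247, which encode the CD3 gamma and zeta signalling chains. Thy1 was detected in 100% of control and 93.7% of depleted cells. Cd3g was detected in 94.1% and 97.9%, and Cd247 in 64.7% and 73.0%. The receptor chains themselves, Cd4 and Cd8a were not listed. Of 13 early thymocyte markers, 7 were listed, namely Rag1, Ptcra, Cd24a, Notch1, Notch3, Hes1 and Dtx1, with shares of 23.5 to 88.2% in control and 49.7 to 95.8% in depleted cells. Defining markers of other cells were listed as well, with the neutrophil gene S100a8 at 58.8% of control and 27.5% of depleted cells, the fibroblast gene Col3a1 at 41.2% and 16.9%, and the B cell gene Cd79b at 23.5% and 38.1%. No defining marker of NK cells, macrophages, erythroid cells, cardiomyocytes or innate lymphoid and gamma-delta T cells was listed, which gives no value for them. The listed T cell markers did not go against the name T cell, and genes of thymic T cell development were detected in both libraries.

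Most listed genes were detected in a smaller share of cells in the library labelled depleted. The share was lower for 839 genes (64.4%), higher for 441 (33.9%) and equal for 22. The median share was 47.1% in control and 36% in depleted cells, and the median difference was -13.2 points (quartiles -23.1 and 8.9). At a limit of 20 points, 104 genes were higher, or 7.99% of those listed, and 448 were lower, or 34.4%. When every difference was taken relative to the median of all listed genes, the split turned round, with 377 genes higher and 47 lower by 20 points. At the top of the range, 68 genes reached 90% in both libraries, and 21 genes, ribosomal protein genes among them, were detected in every cell of both.

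**Figure D1:**
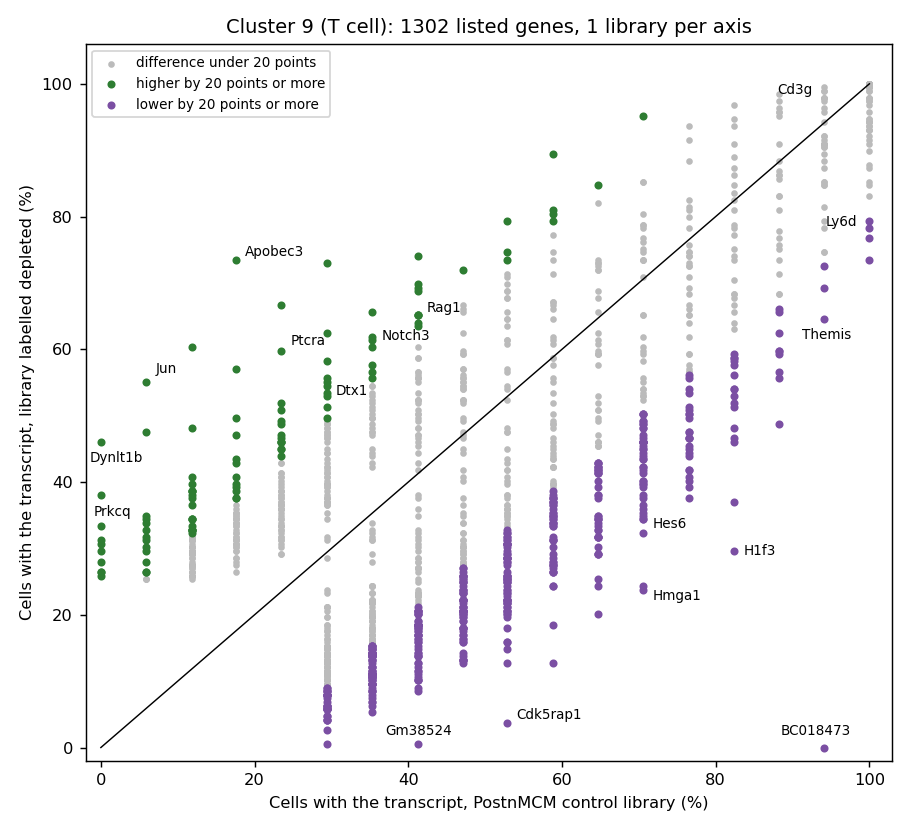
Each point is 1 of the 1302 genes listed for cluster 9, with the share of cells in which it was detected in the control library (x axis, %) against the library labelled depleted (y axis, %), and the diagonal marks equal shares. Control shares stand in columns about 5.9 points apart, 448 purple points lie 20 points or more below the diagonal and 104 green points lie as far above it. The empty corner at the lower left is where the authors' detection limit keeps genes out.

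Genes of early T cell development, the recombinase and pre-TCR genes among them, were more often higher than lower. Of 58 genes on a list of early thymocyte genes, 15 were listed in cluster 9. Of these, 9 were higher, 5 lower and 1 equal, with 5 (33.3%) higher and 2 (13.3%) lower by 20 points, beside 7.99% and 34.4% of all listed genes. Their median difference was 4.1 points, beside -13.2 over all listed genes. Ptcra was detected in 23.5% of control and 59.8% of depleted cells. Rag1 was detected in 41.2% and 65.1%. Notch3, a Notch receptor active in early thymocytes, was detected in 35.3% and 61.9%, and Dtx1, a target gene and regulator of Notch signalling, in 29.4% and 55.6%. Btg2, an antiproliferative gene that is also on the list of immediate early genes, was detected in 64.7% and 84.7%. Hes1, a repressor that Notch induces, had 35.3% and 49.7%, and Notch1 itself 88.2% and 95.8%. Of the others, 6 differed by at most 5.8 points in either direction and 2 were lower by over 20 points. The lineage factor Tcf12 had 82.4% and 78.8%, Lef1 had 52.9% and 47.6%, and Cd24a, a surface protein of immature thymocytes, had 82.4% and 82.5%. Themis, an adaptor of thymocyte selection, was detected in 94.1% of control and 64.6% of depleted cells, and Ly6d, a surface protein of lymphoid progenitors, in 100% and 79.4%.

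The promoters of the 5 early thymocyte genes with shares higher by 20 points are shown because Notch signals act on DNA through RBPJ, whose core motif is TGGGAA. Each run is the 250 bases before the RefSeq transcription start on build GRCm38.p6, 5′ to 3′ on the strand of the gene, here the minus strand for all 5, and capitals mark TGGGAA on either strand. Ptcra lies at chr17:46763713-46763962, Notch3 at chr17:32166891-32167140, Dtx1 at chr5:120711670-120711919, Rag1 at chr2:101649533-101649782 and Btg2 at chr1:134079156-134079405.
Ptcra: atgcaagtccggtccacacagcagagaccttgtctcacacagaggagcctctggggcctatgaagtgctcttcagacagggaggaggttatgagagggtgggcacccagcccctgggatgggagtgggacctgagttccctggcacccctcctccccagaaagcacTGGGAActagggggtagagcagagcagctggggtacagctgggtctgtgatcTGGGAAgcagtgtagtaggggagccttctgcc
Notch3: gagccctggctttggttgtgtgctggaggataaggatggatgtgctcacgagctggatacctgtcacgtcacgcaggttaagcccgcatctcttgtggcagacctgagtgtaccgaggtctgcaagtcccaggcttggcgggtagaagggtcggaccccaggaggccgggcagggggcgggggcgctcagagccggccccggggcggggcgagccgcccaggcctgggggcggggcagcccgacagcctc
Dtx1: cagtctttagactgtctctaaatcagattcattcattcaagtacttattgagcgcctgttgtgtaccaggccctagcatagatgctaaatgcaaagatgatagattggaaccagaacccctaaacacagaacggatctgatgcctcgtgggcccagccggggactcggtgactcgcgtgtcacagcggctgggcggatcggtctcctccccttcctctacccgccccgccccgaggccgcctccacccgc
Rag1: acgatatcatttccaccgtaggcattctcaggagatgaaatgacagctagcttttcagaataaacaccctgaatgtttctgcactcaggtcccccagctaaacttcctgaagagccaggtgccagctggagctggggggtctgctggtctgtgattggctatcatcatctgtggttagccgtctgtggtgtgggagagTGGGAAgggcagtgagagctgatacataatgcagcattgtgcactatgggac
Btg2: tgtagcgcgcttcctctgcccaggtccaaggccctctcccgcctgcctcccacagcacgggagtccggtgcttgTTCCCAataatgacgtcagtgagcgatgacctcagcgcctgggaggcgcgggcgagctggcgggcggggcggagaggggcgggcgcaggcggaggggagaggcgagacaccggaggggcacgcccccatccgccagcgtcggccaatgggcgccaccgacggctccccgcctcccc
The letters stood at 2 places in the Ptcra promoter, at 1 each in those of Rag1 and Btg2, and not in these windows of Notch3 and Dtx1. Over all 32851 promoters of the same length, 21.6% held the motif, and a match is a run of letters, not a bound site.

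Genes of TCR signalling differed in both directions. Of 26 on the list, 4 were listed, 2 higher and 2 lower by 20 points, beside 7.99% and 34.4% of all listed genes. Prkcq, which encodes protein kinase C theta, was detected in 0% of control and 33.3% of depleted cells, and Grap2, the adaptor GADS, in 41.2% and 64.0%. Themis, among those lower, stood as above. Among receptors, Ctla4, the inhibitory counterpart of Cd28, was detected in 47.1% of control and 20.6% of depleted cells. Of 32 genes for cytokine receptors and their signalling, 6 were listed, 2 higher and 4 lower, which is near the 33.9% and 64.4% of all listed genes. Il4ra, the interleukin 4 receptor, had 35.3% and 8.5%. Socs1 and Socs2, which restrain cytokine signals, had 64.7% and 41.8%, and 29.4% and 9.5%. Il17ra and Stat5a were on the other side, with 41.2% and 56.6%, and 23.5% and 38.6%. Il7r, the receptor for the survival cytokine interleukin 7, had 58.8% and 48.7%.

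**Figure D2:**
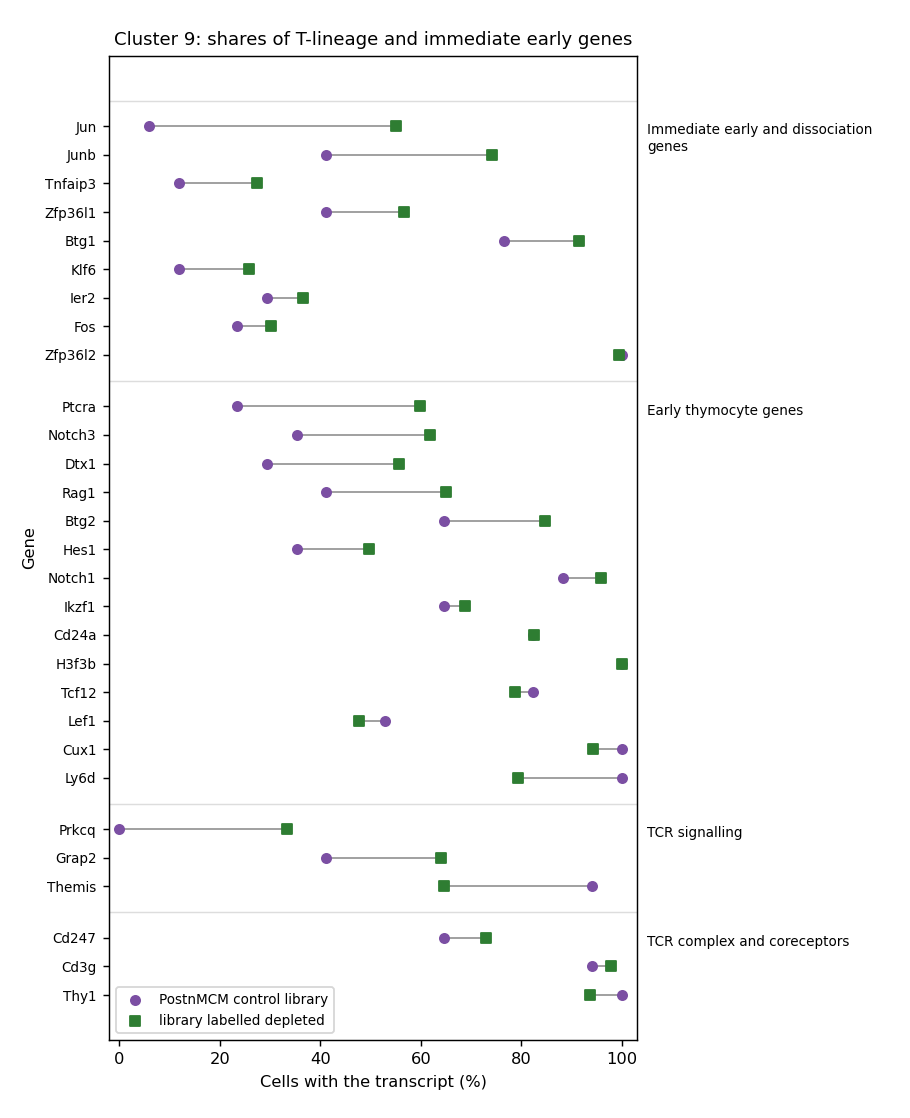
Shares of cells (%) with each transcript in cluster 9, in the control library (purple circles) and the library labelled depleted (green squares), for listed genes of 4 gene lists, each gene drawn once. Ptcra, Notch3, Dtx1, Rag1 and Prkcq have the green square well to the right, and Themis and Ly6d well to the left.

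Few genes that mark the state of mature T cells were listed, and their counts stand beside the 64.4% of all listed genes that were lower. Of 22 naive and central memory genes, 7 were listed, 6 of them lower and 2 (28.6%, beside 34.4% of all) by 20 points, with a median of -12.2 points that became 1 point relative to all listed genes. Bcl2, the survival factor, was detected in 88.2% of control and 62.4% of depleted cells, while Klf3, a zinc finger repressor, was detected in 41.2% and 65.1%. Of 29 effector and cytotoxic genes, 4 were listed, with a median of -20 points that became -6.9 relative to all listed genes. Gzma, a granule protease, had 82.4% and 58.2%, Cst7 had 35.3% and 9.5%, Nkg7, a granule membrane protein, had 47.1% and 31.2%, and the repressor Zeb2 had 17.6% and 34.4%. The regulatory T cell list of 18 genes had 2 listed, Ctla4 and Ikzf2, which encodes Helios and had 82.4% and 66.7%.

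The listed cell cycle genes were mostly detected in smaller shares, as were most listed genes. Of 77 S and G2/M genes, 17 were listed, 15 lower and 2 higher, with a median of -19.2 points. By 20 points, 5 were lower, or 29.4% of those listed, which is near the 34.4% over all genes. Tyms, the thymidylate synthase that supplies dTMP, was detected in 35.3% of control and 9.5% of depleted cells. Mcm4, a subunit of the replicative helicase, had 47.1% and 25.9%, and Top2a, the topoisomerase of mitosis, had 35.3% and 15.9%. In depleted cells Tyms and Top2a were below 25.4%, as were others of the 15, so they could be listed only as lower.

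The listed factors that build cytosolic ribosomes, and most of the listed proteins of the mitochondrial ribosome, were detected in smaller shares of depleted cells. Both lists were put together after values had been seen, so their counts describe and carry no weight of their own. All 14 listed ribosome biogenesis factors were lower, 11 of them (78.6%) by 20 points, beside 34.4% of all listed genes, with a median of -25.0 points. Noc3l was detected in 47.1% of control and 13.2% of depleted cells, Rbm19 in 41.2% and 10.6%, and Nip7 in 58.8% and 28.6%, all of them needed to process pre-ribosomal RNA. Noc3l and Rbm19 were among several of the 14 below 25.4% in depleted cells, which could be listed only as lower. The abundant nucleolar protein Ncl was detected in 100% and 99.5%. Of 25 listed mitochondrial ribosomal proteins, 20 were lower, 14 (56.0%, beside the same 34.4%) by 20 points, with a median of -21.8 points. Mrpl54 had 82.4% and 48.1%, while Mrpl9 went the other way with 11.8% and 32.8%. The cytosolic ribosomal proteins were at the ceiling, since 11 of the 15 listed were detected in every cell of both libraries. The 17 listed nuclear-encoded respiratory chain genes had a median of -2.6 points, and 1 of them passed 20 points in each direction, Uqcrc1 higher (35.3% and 55.6%) and Atp5g3 lower (100% and 76.7%).

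Stress-related genes split by kind. Of 32 immediate early genes, which also mark tissue dissociation, 10 were listed, 9 of them higher and 3 (30%, beside 7.99% of all listed genes) by 20 points, with a median of 15.2 points. Jun, a subunit of the AP-1 factor, was detected in 5.9% of control and 55.0% of depleted cells, and Junb, a related subunit, in 41.2% and 74.1%. Their partner Fos had 23.5% and 30.2%. All 7 listed heat shock and chaperone genes of 27 were lower, 3 (42.9%, beside 34.4%) by 20 points, with a median of -14.1 points, which is close to that of all listed genes. Hsph1, a cytosolic chaperone, had 52.9% and 15.9%, and Hspa9, the mitochondrial Hsp70, had 76.5% and 49.7%. Immediate early and chaperone RNAs move with handling of tissue, and their part in the other differences was not tested.

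**Figure D3:**
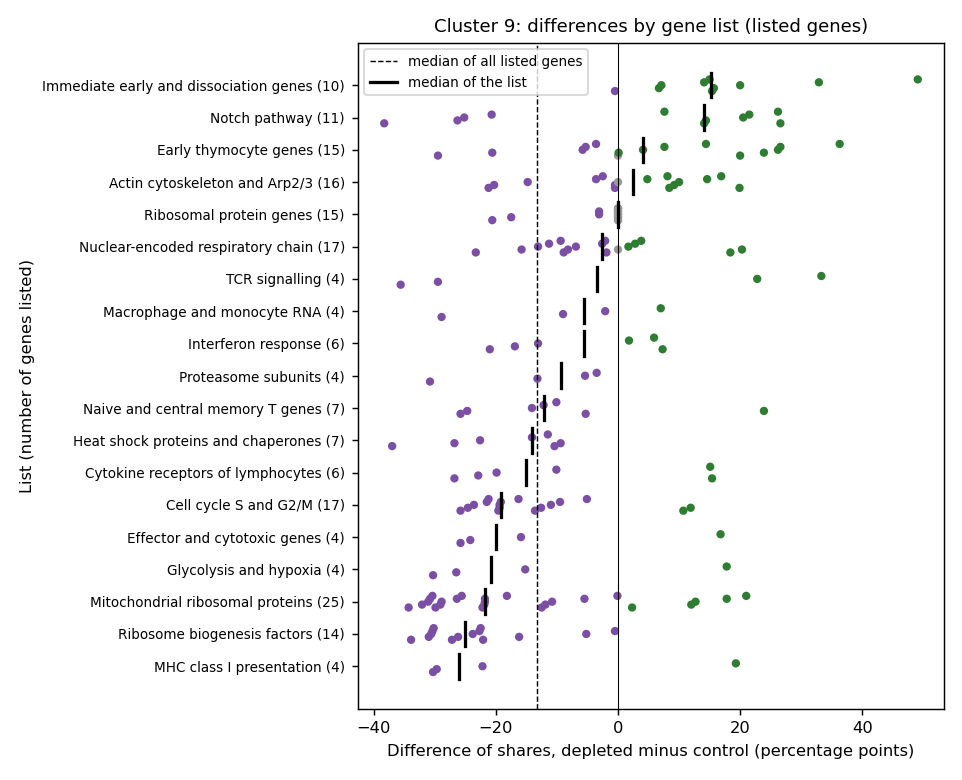
Differences of shares in cluster 9 (points, depleted minus control) for gene lists with at least 4 genes listed, with 1 dot per gene, a bar at the list's median and a dashed line at -13.2, the median of all 1302 genes. Immediate early genes lie to the right with a median of 15.2, and ribosome biogenesis factors to the left with a median of -25.0. The Notch pathway, mitochondrial ribosomal protein and ribosome biogenesis lists were chosen after values had been seen.

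Antigen presentation and metabolism were represented by few genes. Of 20 genes for MHC class I presentation, 4 were listed. Tap1, the peptide transporter, was detected in 64.7% of control and 34.4% of depleted cells, and the class I gene H2-Q4 in 58.8% and 29.1%. H2-T22 had 47.1% and 24.9%, and Tapbp, which loads peptide, 29.4% and 48.7%. The glycolytic enzymes Pgam1 and Ldha had 64.7% and 34.4%, and 100% and 73.5%. Of 56 interferon response genes, 6 were listed, 3 in each direction, beside 33.9% higher and 64.4% lower of all listed genes. Among them were Isg20 (35.3% and 14.3%) and Shisa5 (64.7% and 72.0%). Of 48 genes of the actin cytoskeleton, 16 were listed, 8 higher and 7 lower, beside 33.9% and 64.4% of all listed genes, and 1 of those higher and 4 of those lower differed by less than 1 step of the control shares. Of 24 targets of YAP and TAZ, 2 were listed, Crim1 (35.3% and 14.3%) and Asap1 (29.4% and 12.2%), both lower, as were 64.4% of all listed genes, and relative to the median of all they stood at -7.8 and -4 points. Both were below 25.4% in depleted cells, so they could be listed only through the control library, as lower.

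The 10 highest differences of all led with Apobec3, a cytidine deaminase that restricts retroviruses, with 17.6% of control and 73.5% of depleted cells. Jun came next. Slc5a9, a sugar transporter, was detected in 11.8% and 60.3%, Tsc22d1 in 29.4% and 73.0%, and Ccnd3, cyclin D3, in 23.5% and 66.7%. Arid4a had 17.6% and 57.1%, and Peli1, a ubiquitin ligase that restrains TCR signals, 11.8% and 48.1%. The pseudogene Gm7429 had 5.9% and 47.6%, the dynein light chain gene Dynlt1b 0% and 46.0%, and the ferritin pseudogene Ftl1-ps2 0% and 38.1%. The lowest difference of all was that of BC018473, annotated as lncRNA at chr11:116642993-116650199 in GENCODE vM39 on GRCm39, which was detected in 94.1% of control and 0% of depleted cells. H1f3, a linker histone, was detected in 82.4% and 29.6%, and Hmga1, a chromatin architectural protein, in 70.6% and 23.8%. Cdk5rap1, which modifies transfer RNA, had 52.9% and 3.7%. Mgst2, Mtmr9, Agtrap and Zmym4 were at -46.3, -46.1, -45.4 and -40.4 points.

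Several of these genes have copies that are near-identical over part or all of the transcript, so their values are uncertain. The longest transcript of Dynlt1b, of 930 bases, aligned to that of Dynlt1a at 99.8% identity over 400 bases, and Ftl1-ps2 to Ftl1 at 97.8% over its full 549 bases. H2-T10, at 0% of control and 31.2% of depleted cells, aligned to H2-T22 at 97.4% over 1495 bases of a transcript of 3389, and the shares of the pair differed in opposite directions. Ftl1, by contrast with its pseudogene, was detected in 100% and 97.9%.

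The comparison with the other 17 cluster tables separated genes that cluster 9 alone listed from genes listed widely. All tables come from the same 2 libraries, so a gene listed in several is not supported by independent samples. Of the 1302 genes, 294 (22.6%) were listed in cluster 9 alone, and 326 in 1 other table. At the other end, 66 were listed in at least 9 of the 18 tables and 1, Ftl1-ps2, in all 18. The genes listed in cluster 9 alone were lower in 225 cases and higher in 68, with a median of -19.2 points. By 20 points, 136 of them (46.3%) were lower, beside 34.4% of all listed genes, and 21 (7.1%) higher, which is near the 7.99% of all. The 66 widely listed genes were more even, with 29 lower, 25 higher and 12 equal, and a median of 0 points.

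**Figure D4:**
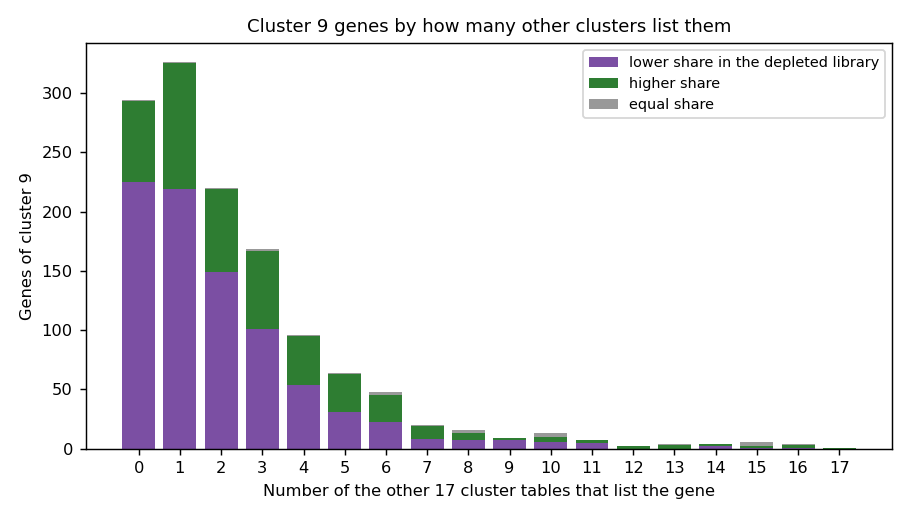
Number of genes of cluster 9 (y axis) by how many of the other 17 cluster tables list them (x axis), stacked by the sign of the difference of shares in cluster 9. The bar for no other table holds 294 genes, 225 of them lower in the library labelled depleted, and the bar for all 17 others holds 1 gene.

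Among the genes listed for cluster 9 alone were Prkcq, Notch3 and Dtx1, described above. Itpr1, the calcium channel of the endoplasmic reticulum that opens after TCR stimulation, was detected in 0% of control and 28.0% of depleted cells. Pik3ip1, a restraint on PI3 kinase in T cells, had 52.9% and 79.4%, and Drosha, the nuclear enzyme of microRNA processing, 41.2% and 69.3%. Raver1, AW011738 and Gm39556 completed the 8 highest, with differences of 28.8 to 29.0 points. Of those lower, Hes6, a Hes family member that opposes Hes1, was detected in 70.6% of control and 32.3% of depleted cells. Pex13, of the peroxisomal import machinery, had 64.7% and 20.1%, and the gene model Gm38524 had 41.2% and 0.5%. Cnot8, a deadenylase, had 76.5% and 37.6%. Noa1, Yrdc, Hsph1 and Tmem223 completed the 8 lowest, with differences of -40.2 to -36.4 points. Ctla4, Top2a and Lats1 were listed in cluster 9 alone too. Lats1, the Hippo kinase that phosphorylates YAP and TAZ, was picked out after its values were seen and had 47.1% and 16.4%.

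Genes of the Notch pathway, a list also chosen after values were seen, differed in both directions. Of 11 listed, 7 were higher and 4 lower, with a median of 14.1 points beside -13.2 over all listed genes. By 20 points, 4 (36.4%) were higher and 4 (36.4%) lower, beside 7.99% and 34.4% of all listed genes. Besides Notch3, Dtx1 and Hes6, the coactivator gene Maml2 had 23.5% and 45.0% and its relative Maml3 had 58.8% and 38.1%. Lfng, a glycosyltransferase that modifies Notch receptors, had 29.4% and 4.2%, and Psenen, a subunit of the gamma-secretase that cleaves them, 82.4% and 56.1%.

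Some genes at the extremes of cluster 9 stood in many tables with 1 direction. BC018473 was lower in all 15 other tables that listed it, where its control shares were 29.0 to 100% and its depleted shares 0 to 1.1%. Apobec3 was higher in all 13 other tables that listed it, with 9.1 to 50% of control and 30 to 81.8% of depleted cells. Dynlt1b, Gm7429 and Ftl1-ps2 were likewise higher in all 9, 13 and 17 others, with at most 9.4% of control cells there. With shares this low in 1 library, these 3 genes and BC018473 could be listed only in this direction. Jun did not keep 1 direction, since it was higher in 1 and lower in 4 of its 5 other tables, those of macrophage clusters 0, 3, 11 and 13 and of the dendritic cell cluster 17, with control shares of 30 to 80.3%.

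The T cell clusters 4, 6, 7, 8 and 10 of the study listed 625 of the 1302 genes between them. The overlap with cluster 10, named proliferating T cell, was 368 genes, or 28.3% of the cluster 9 table and 21.8% of that of cluster 10. With cluster 6, of the same name, it was 208 genes, or 16% and 29.6%. With clusters 4, 7 and 8 it was 141, 130 and 163 genes, or 10.8%, 10% and 12.5% of the cluster 9 table and 31.3%, 30.9% and 30% of theirs. Overlap was as large outside the T cells, since the dendritic cell cluster 17, which had the longest table, shared 371 genes, or 28.5% and 19.4%. Ptcra was also listed in cluster 10, at 27.3% of control and 49.5% of depleted cells, and in no further table. Rag1 was listed in cluster 10 at 54.5% and 77.4% and in cluster 6 at 63% and 72.4%, and in cluster 18, a neutrophil cluster, at 0% and 29.4%. Slc5a9 was shared with cluster 10 only, at 0% and 25.3%. Hmga1 was shared with cluster 6 only, at 88.9% and 49.9%, and H1f3 with cluster 10 only, at 54.5% and 41.4%. Not all shared genes went the same way. Grap2, higher in cluster 9, had 55.6% and 44.2% in cluster 6. These differences between clusters were not tested.

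**Figure D5:**
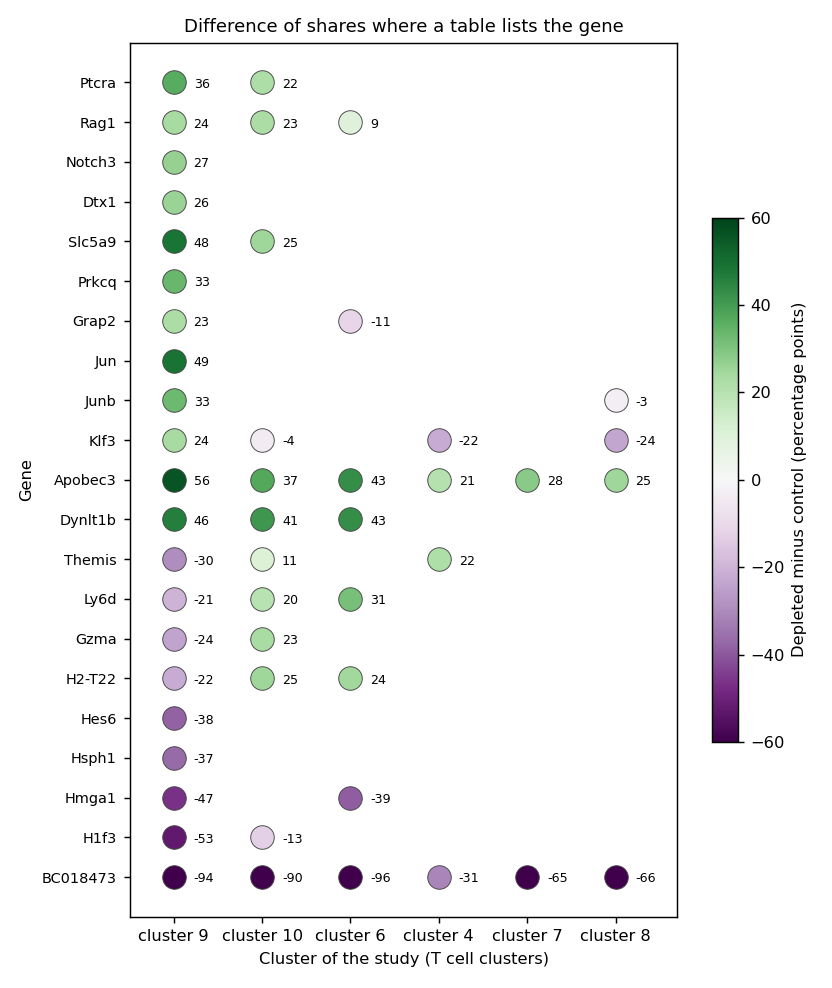
Differences of shares (points, depleted minus control) for named genes in cluster 9 and the other T cell clusters of the study, drawn only where a cluster's table lists the gene, with the value beside each dot and colours capped at 60 points. Apobec3 is green and BC018473 purple in all 6 clusters, whereas Themis, Ly6d, Gzma and H2-T22 are purple in cluster 9 and green in another.

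Genes on the lists of other cell types were listed too, and several of them were lower, as were 64.4% of all listed genes. S100a8, which neutrophils make in bulk, was detected in 58.8% of control and 27.5% of depleted cells. Chil3, of macrophages and neutrophils, had 29.4% and 0.5%, while the other macrophage and monocyte genes listed, Plac8, Ftl1 and Grn, differed by -9, -2.1 and 7 points. The median of these 4 was -5.6 points, which became 7.6 relative to all listed genes. Ftl1 was detected in at least 99.4% of control cells of every cluster that listed it, so it marks no cell type here. The MHC class II gene H2-Ab1 had 52.9% and 30.7%. Fibroblast RNA followed, with Col3a1 at 41.2% and 16.9% and Mgp at 35.3% and 15.3%. In the other tables that listed them, S100a8 was lower in 8 of 10, Chil3 in 13 of 14, Col3a1 in 8 of 9 and Mgp in 7 of 8, all from the same 2 libraries. In cluster 9 and many of these others, Chil3, Col3a1 and Mgp were below the authors' detection limit in depleted cells. There they could be listed only through control, as lower. The calcium pump gene Atp2a2, abundant in cardiomyocytes, had 52.9% and 25.4%. Cd79b, of the B cell receptor, was higher at 23.5% and 38.1%. Of the lists of other cell types, 3 of 24 fibroblast genes, 1 of 18 neutrophil genes, 4 of 33 macrophage and monocyte genes, 2 of 17 B cell genes and 1 of 17 cardiomyocyte genes were listed. Their part in the lower shares of other genes was not tested.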

How the data were processed

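The authors aligned each library with Cell Ranger 6.1.1 to GRCm39 extended by reporter sequences, combined both without depth normalization, clustered cells in Seurat after SCTransform, and compared libraries within each cluster. The methods name no doublet caller. The deposited tables give, per gene, the fraction of cells with a corrected SCTransform count above 0 in each library, here written as percent; that correction for depth can move low shares. They also hold the authors' log2 fold changes and p-values, which were not used. Only genes past the authors' limits are listed, and in cluster 9 the larger share was at least 25.4%. Differences, counts at a limit of 20 points and list medians were computed with Python 3.11.15 and pandas 2.3.3 over 18 cluster tables, and checked on simulated data. Fibroblast subcluster tables were not used. Named genes were the 10 highest and lowest, the 8 highest and lowest listed in cluster 9 alone, the 5 largest of each list, the TCR complex genes, those in all 18 tables and the targeted genes; further list members and genes marked as such were added. Members and lists were chosen with earlier results of these data known. Alternatives changed the limit, the scale, the detection limit and the centring. Symbols matched GENCODE vM39 for 96.2% of genes. Some listed genes that this rule would name are not reported here.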

Additional observations from a re-analysis of the deposited data

Results flagged for a closer look

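For 34 of the 625 genes that cluster 9 shared with any other T cell cluster of the study, the 2 libraries differed in opposite directions between the clusters, by at least 20 points each way. Of these, 28 were against cluster 10, which shared 368 genes, and 5 of the 34 are among the named genes given here. Genes past the limit in the same direction were not counted. None of these differences between clusters was tested. Themis differed by -29.5 points in cluster 9 and by 21.6 in cluster 4, where it was detected in 21.4% of control and 43% of depleted cells. Klf3 differed by 23.9 points in cluster 9, by -22.5 in cluster 4 (63.8% and 41.3%) and by -23.6 in cluster 8 (63.2% and 39.6%). Gzma differed by -24.2 points in cluster 9 and by 23.3 in cluster 10 (36.4% and 59.7%). H2-T22 differed by -22.2 points in cluster 9, by 24.4 in cluster 6 (33.3% and 57.7%) and by 24.9 in cluster 10 (36.4% and 61.3%). Ly6d differed by -20.6 points in cluster 9, where all control cells had it, by 31.2 in cluster 6 (29.6% and 60.8%) and by 20.1 in cluster 10 (45.5% and 65.6%). The control shares of these clusters take few distinct values, 28 in cluster 6 and 12 in cluster 10, beside 18 in cluster 9. Relative to the median difference of all genes listed in cluster 9, Themis stood at -16.3, Gzma at -11, H2-T22 at -9 and Ly6d at -7.4 points there, all short of the 20-point limit and still negative.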

How the results depend on the processing

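No paired analysis was possible because each genotype had 1 library, and for the same reason no replicate could be left out. The counts of 104 higher and 448 lower genes became 308 and 711 at a limit of 10 points and 19 and 114 at 30 points. They became 43 and 245 when 1 of both shares had to reach 50%, and 377 and 47 after centring on the median difference. A limit of 1 on the log2 ratio of shares gave 109 and 305 with a pseudocount of 1 point, and 80 and 223 with 5 points. Without genes listed in at least 9 tables, an alternative chosen after seeing the data, 93 and 432 remained. The 294 genes listed in cluster 9 alone became 530 when only tables with the same sign counted as sharing, and 157 at 20 points. The 66 widely listed genes became 294 at 5 tables and 28 at 12. Of 19 gene lists with at least 3 genes listed, 13 had a median below 0 by the shares, 14 by the mean and 7 after centring. Of 123 named genes, 46 were higher by the shares and 58 after centring. Counting intervals were not computed, since the tables hold shares without stated cell numbers, and the steps of 5.8 to 5.9 points between control shares in cluster 9 set the resolution of every difference.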
